A study of Homo sapiens with 6 samples.

Results

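The replication-independent histone variants are histone genes that lie outside the large histone gene clusters and supply chromatin with histones at any time in the cell cycle. The 9 genes described were chosen by symbol from a table of 58884 genes. They were 1 linker histone (H1FX), 6 genes of the H2A class (H2AFX, H2AFZ, H2AFV, H2AFY, H2AFY2 and H2AFJ) and 2 genes of the H3 class (H3F3A and H3F3B), each with 1 row in the table. These are the symbols of the deposited table. The current symbols are H1-10, H2AX, H2AZ1, H2AZ2, MACROH2A1, MACROH2A2, H2AJ, H3-3A and H3-3B, in the same order.

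RNA was sequenced from DBTRG, an established human glioblastoma cell line labelled wild type in both groups. Cells were grown for 5 days in a soft gel as a 3D culture (3 libraries) or on a rigid dish as a 2D culture (3 libraries), with no drug named for either group. The gel material and its stiffness are not given in the sources used here, and all libraries come from 1 cell line. Whether the libraries of a group were grown separately is not stated, and the p-values therefore cover the spread among these libraries alone, and that spread may be technical.

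Most histones are made in S phase from clustered genes whose mRNAs end in a stem-loop instead of a poly(A) tail. The variants are made mainly from polyadenylated mRNAs, and chaperones and remodelling complexes place them in chromatin outside replication. H3.3 marks active genes, regulatory elements and telomeres, H2A.Z sits beside transcription start sites, H2A.X is phosphorylated around DNA breaks, and macroH2A carries an extra globular domain and is found in repressed chromatin. Linker histones bind the DNA that enters and leaves the nucleosome.

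The libraries held 20911340 to 25901465 counts. Across genes, which are no replicates of a group, log2 CPM of library pairs had a Pearson correlation of 0.981 to 0.993 within a group and 0.956 to 0.977 between groups. Of 8 glial and glioma markers 7 were tested. Among them 2 were called higher (SOX2 and CD44) and 3 lower (NES, VIM and EGFR) in soft gel. Of all genes tested, 15.4% were called higher and 13.2% lower. SOX2 averaged 93.7 CPM in soft gel and 62.2 CPM on the rigid dish (CPM are counts scaled to library size with TMM factors, n = 3 each), GFAP stayed under 1 CPM on average in both groups, and OLIG2 had no count. Summed endothelial markers (4 genes) reached at most 0.934 CPM in soft gel and 0.973 CPM on the rigid dish. Summed epithelial markers (4 genes) reached at most 0.282 CPM in soft gel and 1.77 CPM on the rigid dish. Summed immune markers (5 genes) were 39.2 to 46.2 CPM in soft gel and 10.2 to 15.1 CPM on the rigid dish. Nearly all of that sum was CD68, while the leukocyte marker PTPRC averaged 0.437 and 0.236 CPM. Summed neuronal markers (4 genes) were 60.1 to 70.8 CPM in soft gel and 88.0 to 106.5 CPM on the rigid dish, mostly TUBB3. The part of these marker genes in the results was not tested.

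Several features of the sequences set the members apart before any level is compared. They are a stem-loop in H2AFX, the promoters, and the coding sequences of the paired genes. The stem-loop that ends clustered histone mRNAs occurred in both annotated H2AFX transcripts, before their annotated ends, and in no transcript of the other 8 members. It is shown because it sets H2AFX apart from the other members, and H2AFX is known to give both a stem-loop mRNA and a polyadenylated mRNA. It lay at bases 555 to 570 of the 1614-base transcript in GENCODE release 29 (hg38, chromosome 11, minus strand), with the 2 arms of the stem in capitals:
H2AFX stem-loop: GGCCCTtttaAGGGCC
The consensus of the histone stem-loop was searched on the transcript strand. It occurred in transcripts of 92 of 57133 gene symbols (0.161%), of which 35 were clustered histone genes. The transcripts searched covered 90 clustered histone gene symbols, so that the search did not find it in all of them.

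RefSeq promoter windows (GRCh38.p14, 250 bases before to 50 bases after the start) were found for all 9 members, with 13 windows in all. CCAAT and TATAAA were searched on both strands, and in the members no match shared a base with another. TATAAA occurred in 4 members (H2AFX, H2AFZ, H3F3B and H1FX), in each on the coding strand, with its first base at -29 in H3F3B and at -31 in the other 3. Of all 35116 windows, 11.5% held TATAAA on either strand. CCAAT occurred in 7 members, with 4 copies in H2AFX, H3F3B and H2AFV and 3 in H2AFZ and H2AFJ. At least 1 CCAAT was found in 34.6% of all windows, at least 3 in 3.26%, and TATAAA together with at least 3 CCAAT in 0.336%. These shares are per window, whereas a member with several windows (H3F3A and H2AFY) was counted if any of them held the motif. The numbers of members and the shares are therefore not in like units. The windows of H2AFX, H2AFZ and H3F3B, which hold both motifs, are shown beside that of H2AFV, the second H2A.Z gene, which has no TATAAA. Capitals mark CCAAT, its reverse complement and TATAAA.
H2AFX, chr11:119095416-119095715, minus strand: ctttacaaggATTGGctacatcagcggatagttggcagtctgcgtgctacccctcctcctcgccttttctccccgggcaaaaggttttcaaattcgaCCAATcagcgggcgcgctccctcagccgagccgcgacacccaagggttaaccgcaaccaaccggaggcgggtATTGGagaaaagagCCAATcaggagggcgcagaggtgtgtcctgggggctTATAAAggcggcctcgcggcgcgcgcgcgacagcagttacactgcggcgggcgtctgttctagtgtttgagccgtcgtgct
H2AFZ, chr4:99950226-99950525, minus strand: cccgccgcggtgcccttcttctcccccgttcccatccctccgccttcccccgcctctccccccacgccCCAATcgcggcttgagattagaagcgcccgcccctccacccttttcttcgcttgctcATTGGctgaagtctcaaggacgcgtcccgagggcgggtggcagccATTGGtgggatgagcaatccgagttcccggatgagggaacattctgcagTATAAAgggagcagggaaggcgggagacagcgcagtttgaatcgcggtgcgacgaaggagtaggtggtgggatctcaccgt
H3F3B, chr17:75779730-75780029, minus strand: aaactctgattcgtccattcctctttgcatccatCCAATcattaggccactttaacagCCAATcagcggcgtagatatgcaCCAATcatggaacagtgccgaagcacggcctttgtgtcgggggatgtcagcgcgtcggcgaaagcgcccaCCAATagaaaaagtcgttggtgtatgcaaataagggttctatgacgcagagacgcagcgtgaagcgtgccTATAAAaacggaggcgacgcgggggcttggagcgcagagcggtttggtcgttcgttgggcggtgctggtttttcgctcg
H2AFV, chr7:44848038-44848337, minus strand: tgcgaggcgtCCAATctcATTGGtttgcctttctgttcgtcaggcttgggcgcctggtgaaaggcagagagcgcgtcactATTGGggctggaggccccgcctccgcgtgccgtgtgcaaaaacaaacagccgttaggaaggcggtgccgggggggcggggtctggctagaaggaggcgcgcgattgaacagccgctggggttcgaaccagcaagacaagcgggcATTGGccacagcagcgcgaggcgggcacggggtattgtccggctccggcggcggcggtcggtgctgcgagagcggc
A motif match is a description of the letters and not evidence of a bound factor.

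H3F3A and H3F3B encode the same 136-residue H3.3 protein with 0 residue differences, although 88 of their 411 coding bases differ (78.6% identity). H2AFV and H2AFZ differ at 76 of 387 coding bases (80.4% identity) and 3 of 128 residues. The pseudogene H3F3AP4 on chromosome 2 has the 411 coding bases of H3F3A without a difference. The last 60 coding bases show this, with bases that differ from H3F3A, or for H2AFV from H2AFZ, in capitals:
H3F3A: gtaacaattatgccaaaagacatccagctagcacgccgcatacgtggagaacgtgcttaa
H3F3B: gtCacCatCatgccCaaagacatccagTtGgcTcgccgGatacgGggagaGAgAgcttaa
H3F3AP4: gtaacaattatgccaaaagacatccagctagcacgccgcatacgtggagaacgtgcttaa
H2AFZ: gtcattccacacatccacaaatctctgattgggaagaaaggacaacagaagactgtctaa
H2AFV: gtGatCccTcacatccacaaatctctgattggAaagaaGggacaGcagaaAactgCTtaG
Reads of H3F3A and H3F3B, or of H2AFZ and H2AFV, can thus be told apart at many bases, whereas coding reads of H3F3A and H3F3AP4 cannot. H3F3AP4 was credited with 339, 234 and 130 counts in soft gel and 418, 329 and 224 counts on the rigid dish. The level of H3F3A, with 3127 to 3157 counts in soft gel and 3538 to 4351 on the rigid dish, is therefore uncertain. The counts credited to H3F3AP4 do not bound that error, since how shared reads were assigned is unknown here. The other 14 annotated pseudogenes of H3F3A, H3F3B, H2AFZ and H2AFV held at most 2 counts in any library.

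The comparison asks whether variant mRNAs differ between cells in soft gel and on a rigid dish. Of the 9 members, 5 fell in soft gel, 0 rose, 3 were tested without passing and 1 (H2AFY2) had too few counts for the test. The falls ranged from 22.0% for H2AFY to 47.7% for H2AFX, on the CPM scale. Calls were made with edgeR's quasi-likelihood test at a Benjamini-Hochberg adjusted p below 0.05 over 16098 genes. Across these genes 13.2% were called lower in soft gel and 15.4% were called higher. The median log2 fold change, soft gel over rigid dish, was -0.58 over the 8 tested members and 0.05 over all genes tested. In 7 of the 8, every soft gel library lay below every rigid dish library, which held for 21.1% of all genes tested. In bulk RNA, fewer cells that express a gene and less RNA per cell cannot be told apart. Without soft gel replicate 1, soft gel replicate 2 or rigid dish replicate 2, 3 members were called lower (H2AFX, H2AFZ and H3F3B). On log2(TPM + 1) with limma the number was 2 (H2AFX and H2AFZ). Over all genes 864, 797 and 936 were called lower on leaving out these libraries in the same order. On log2(TPM + 1) 968 were, against 2123 on counts with all libraries.

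**Figure D1:**
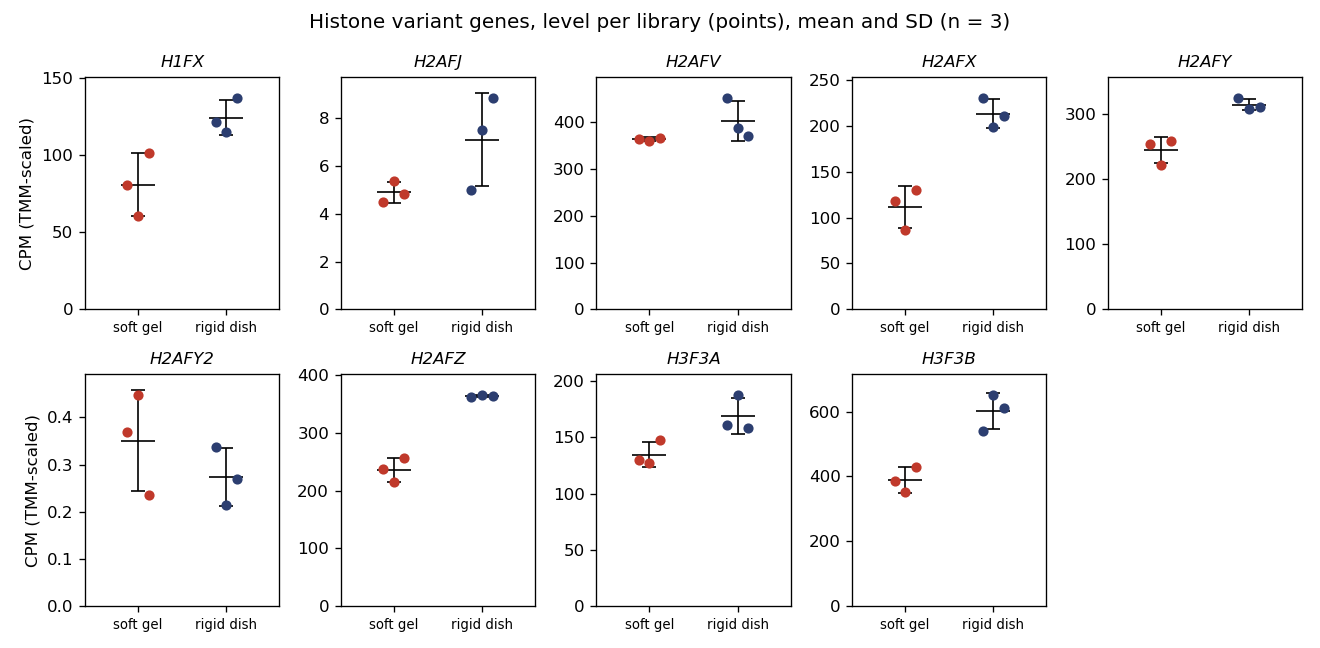
Level of each of the 9 histone variant genes in CPM (vertical axes, each starting at 0) in soft gel and on the rigid dish. Points are libraries, the long bar is the mean and the whiskers are the SD (n = 3). The groups overlap for H2AFJ and H2AFY2, and in the other 7 genes every soft gel point lies below every rigid dish point.

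H2AFX, whose product H2A.X is phosphorylated beside double-strand breaks, fell most. It was at 118.3, 86.3 and 130.3 CPM in soft gel libraries 1 to 3, against 230.2, 199.0 and 211.0 CPM in rigid dish libraries 1 to 3. The groups were far apart, since the highest soft gel library stood well under the lowest rigid dish library. The mean was 111.6 ± 22.8 CPM in soft gel, against 213.4 ± 15.8 CPM for the rigid dish (SD, 3 libraries each). Its log2 fold change was -0.94 (SE 0.156, edgeR adjusted p = 0.00377). H2AFX lies at chr11:119093854-119095467 on the minus strand (ENSG00000188486), and the call was kept under all 16 alternatives run. The direction was opposite to that of the counts of clustered histone genes, some of which held the stem-loop consensus found in H2AFX. Of 23 tested clustered genes 12 were called higher and 0 lower, against 15.4% and 13.2% of all genes tested. All 71 summed to 92.5 to 101.0 CPM in soft gel and 38.6 to 51.7 CPM on the rigid dish. Whether RNA was selected by its poly(A) tail is not stated here. Such a selection would miss most mRNAs that end in the stem-loop, of clustered genes and of H2AFX. The values thus cover the captured mRNAs, and the total mRNA of these genes is not known.

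H2AFZ encodes H2A.Z.1, the main H2A.Z isoform, and had the highest TPM of the members in 6 of 6 libraries, though close to H3F3B. Its level was 236.7, 214.7 and 256.1 CPM in the soft gel libraries and 362.7, 364.8 and 363.3 CPM in the rigid dish libraries. The rigid dish libraries were almost equal, and each soft gel library was lower than all of them. The mean was 235.8 ± 20.7 CPM in soft gel and 363.6 ± 1.07 CPM in rigid dish cells (SD, n = 3 each), a fall of 35.1%. Its log2 fold change was -0.62 (SE 0.106, edgeR adjusted p = 0.00408), and this call too was kept under all 16 alternatives. The gene lies at chr4:99948086-99950388 on the minus strand (ENSG00000164032).

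H2AFV encodes H2A.Z.2 and did not pass the test on counts, but its TPM differed more than its counts. Counts scaled to CPM were 365.1, 359.2 and 367.3 in soft gel and 451.1, 386.9 and 369.7 on the rigid dish. On counts the log2 fold change was -0.15 (SE 0.110, edgeR adjusted p = 0.34), and the higher rigid dish mean came largely from replicate 1. In TPM (a unit that divides by transcript length) H2AFV had 195.4, 148.7 and 168.8 in soft gel and 318.1, 240.7 and 210.2 on the rigid dish. On that scale the difference was -0.57 (log2 of TPM + 1, SE 0.168), which also missed the threshold (limma adjusted p = 0.0598). H2AFV lies at chr7:44826791-44848083 on the minus strand (ENSG00000105968).

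The gap between the scales of H2AFV appears as a longer implied mean transcript in soft gel. Which tool made the deposited counts and TPM is unknown here, and this value rests on how that tool assigned length. Dividing each count by its TPM, and scaling to 407 single-transcript genes, gave an implied mean transcript length for each library. For H2AFV it was 2871, 3590 and 3125 bases in soft gel and 2292, 2197 and 2213 bases on the rigid dish. The groups did not overlap (log2 ratio of the means 0.52, exact permutation p = 0.1, two-sided, the smallest that 3 against 3 allows). Of 6625 protein-coding genes with at least 500 counts in every library, 5 genes, H2AFV among them, had an upward shift that large (0.0755%). The middle 90% of these genes lay between -0.15 and 0.15. GENCODE release 29 annotates 8 H2AFV transcripts, of which the longest has 3804 bases and the other 7 have 439 to 1041 bases. Values per transcript were not analysed here. For the other 8 members the log2 ratio of implied length lay between -0.05 (H3F3B) and 0.05 (H2AFY). This measure was chosen after the values had been seen.

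**Figure D2:**
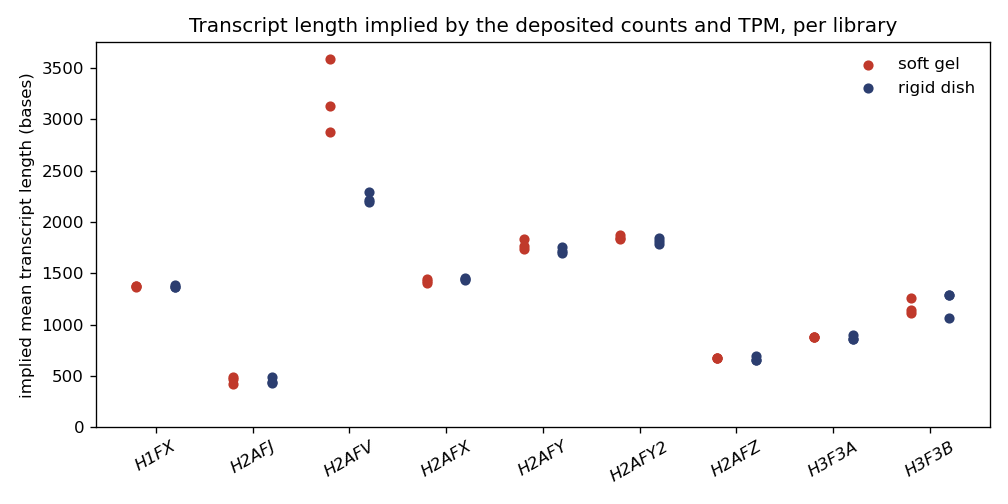
Mean transcript length implied by the deposited counts and TPM (vertical axis, bases) for each histone variant gene, with soft gel libraries left and rigid dish libraries right of each position (3 points each). H2AFV stands at 2871 to 3590 bases in soft gel and 2197 to 2292 bases on the rigid dish, while the groups overlap or lie close together for the other genes.

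**Figure D3:**
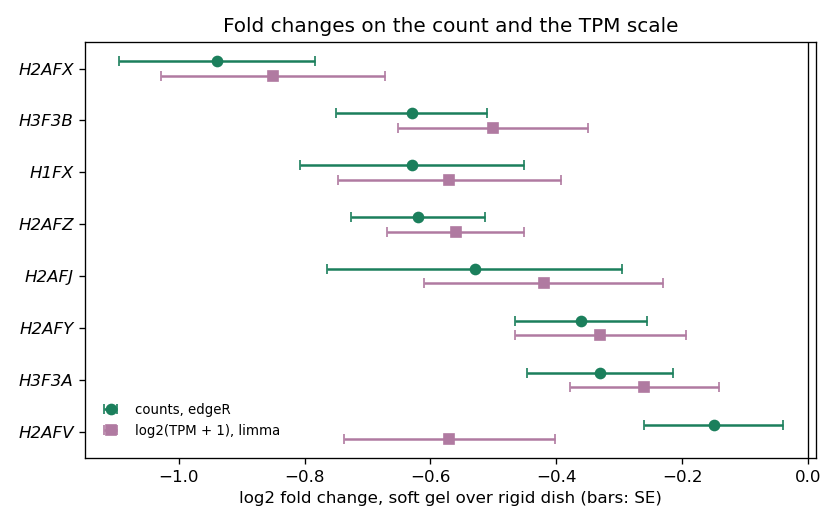
Log2 fold change of the 8 tested members, soft gel over rigid dish (horizontal axis, bars are SE), from counts with edgeR (circles) and from log2(TPM + 1) with limma (squares). All values are below 0, and H2AFV is the gene whose estimates differ most between the scales, at -0.15 and -0.57.

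H2AFY encodes macroH2A1, and its partner H2AFY2 encodes macroH2A2. H2AFY was at 254.8, 222.7 and 259.4 CPM in soft gel against 324.5, 308.5 and 311.6 CPM on the rigid dish. All soft gel libraries were lower, although the distance between the groups was smaller than for H2AFX or H2AFZ. H2AFY was called lower at -0.36 on the log2 scale (SE 0.105, edgeR adjusted p = 0.0325). The call was lost on TPM (limma adjusted p = 0.14), with upper quartile factors (0.0516), and without rigid dish replicate 2 (0.1), soft gel replicate 1 (0.0959) or soft gel replicate 2 (0.133). H2AFY lies at chr5:135333900-135399914 on the minus strand, and its antisense gene C5orf66 held 255, 291 and 288 counts in soft gel and 232, 169 and 192 counts on the rigid dish. H2AFY2 was close to the detection limit, with 9, 11 and 5 counts in soft gel and 9, 5 and 6 counts on the rigid dish. Those groups overlapped, and so few counts could show only a large difference. The authors' deposited table gave H2AFY2 a log2 fold change of 0.13 (adjusted p = 0.846). H2AFY2 also overlaps AIFM2 on the opposite strand (2446 to 3444 counts per library), and no strand setting is stated, so that even these few counts are uncertain. In the TPM as given, H2AFY made up 99.8% to 99.9% of the pair in soft gel and 99.9% on the rigid dish. That share carries the same uncertainty as the H2AFY2 counts.

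H2AFJ encodes H2A.J, a variant close in sequence to canonical H2A, and was low. It had 4.49, 5.36 and 4.83 CPM in soft gel and 4.98, 7.50 and 8.83 CPM on the rigid dish. Rigid dish replicate 1 lay within the soft gel range while the other 2 rigid dish libraries were higher. The log2 fold change of -0.53 (SE 0.235) did not pass (edgeR adjusted p = 0.113), and it passed only without rigid dish replicate 1 (adjusted p = 0.0141).

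H3F3B and H3F3A both encode H3.3, and H3F3B supplied the larger part of the mRNA. H3F3B was at 386.9, 351.7 and 428.8 CPM in soft gel and 540.6, 649.9 and 610.8 CPM on the rigid dish. The groups did not overlap, and the mean was 35.2% lower in soft gel (389.1 ± 38.6 against 600.5 ± 55.4 CPM, SD, n = 3 each). The log2 fold change was -0.63 (SE 0.120, edgeR adjusted p = 0.00659), and the call was lost on TPM (limma adjusted p = 0.0626). H3F3B lies at chr17:75776434-75785893 on the minus strand and overlaps UNK on the opposite strand, which held 980 to 1012 counts per library. In TPM it was at 533.0, 415.7 and 538.8 in soft gel and 824.1, 690.6 and 598.4 on the rigid dish.

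H3F3A had 130.0, 126.9 and 147.5 CPM in soft gel and 160.9, 187.4 and 158.5 CPM on the rigid dish. The groups were close but did not overlap on this scale, whereas in TPM they did. The log2 fold change of -0.33 (SE 0.116) missed the threshold (edgeR adjusted p = 0.0617). It passed with DESeq2 (adjusted p = 0.0322) and without rigid dish replicate 1 (0.0369) or soft gel replicate 3 (0.0249). H3F3A made up 29.9%, 33.9% and 30.8% of the H3.3 TPM in soft gel and 26.1%, 30.1% and 27.9% on the rigid dish. Those shares overlapped (exact permutation p = 0.2, two-sided), and with 3 against 3 the smallest possible p is 0.1, so that no share could pass 0.05. Computed from CPM the difference in share was 3.78 percentage points, soft gel minus rigid dish (exact permutation p = 0.1).

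The linker histone variant fell as well. H1FX, which encodes H1.10, was at 80.4, 60.4 and 101.3 CPM in soft gel and 121.7, 114.8 and 136.9 CPM on the rigid dish. Soft gel replicates 2 and 3 were far apart, so that the error of the H1FX value was the largest among the called members (log2 fold change -0.63, SE 0.178, edgeR adjusted p = 0.0291). The H1FX call was lost on TPM (limma adjusted p = 0.0694) and without rigid dish replicate 2 (0.0675), rigid dish replicate 3 (0.056), soft gel replicate 1 (0.0935) or soft gel replicate 2 (0.0901). H1FX lies at chr3:129314771-129316277 on the minus strand.

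Ordered by TPM, the members stood in the same sequence in both groups. From the top these were H2AFZ, H3F3B, H3F3A, H2AFY, H2AFV, H2AFX, H1FX, H2AFJ and H2AFY2. H2AFZ averaged 518.9 ± 41.3 TPM in soft gel and 766.9 ± 74.5 TPM on the rigid dish (SD, n = 3 each). At the other end of the order H2AFY2 averaged 0.283 ± 0.0929 TPM in soft gel and 0.217 ± 0.0737 TPM on the rigid dish. Library ranges of neighbours overlapped between H2AFZ and H3F3B, between H3F3A and H2AFY, and between H2AFY and H2AFV in both groups. H2AFX and H1FX overlapped in soft gel, and H2AFV and H2AFX on the rigid dish. Within libraries, H2AFZ was above H3F3B in 6 of 6, H3F3A above H2AFY in 5 of 6 and H2AFY above H2AFV in 4 of 6. The other neighbours kept their order in 6 of 6 libraries.

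The 9 members summed to 1958.7, 1603.9 and 1951.3 TPM in soft gel and 2997.6, 2556.3 and 2304.1 TPM on the rigid dish. The sums did not overlap, with means of 1838.0 ± 202.8 TPM in soft gel and 2619.3 ± 351.0 TPM on the rigid dish (SD, n = 3 each, exact permutation p = 0.1, two-sided, the smallest that the design allows). The H2A class made up most of each sum, at 909.2 to 1107.8 TPM in soft gel and 1347.6 to 1740.8 TPM on the rigid dish. H3 genes gave 629.2 to 779.0 TPM in soft gel and 830.0 to 1115.2 TPM on the rigid dish, and H1FX gave 65.4 to 105.9 TPM in soft gel and 115.1 to 141.6 TPM on the rigid dish. The 4 pair shares and the sum formed a family of 5 permutation tests, in which the Benjamini-Hochberg adjusted p ran from 0.333 to 0.8. Since none of these p-values could fall below 0.1, the shares are given as values and no absence of a difference can be read from them. H2AFZ held 73.5%, 76.0% and 76.3% of the H2A.Z TPM in soft gel and 72.6%, 75.9% and 76.8% on the rigid dish (exact permutation p = 0.8). Computed from CPM, which ignores length, the difference in H2AFZ share, soft gel minus rigid dish, was -8.28 percentage points (exact permutation p = 0.1). The share of H2AFX in the TPM of H2AFX and H2AFJ was 88.8%, 84.4% and 90.1% in soft gel and 94.0%, 89.1% and 87.6% on the rigid dish (exact permutation p = 0.5).

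The other genes for histone variants were mostly silent. Of 12 listed, 10 were under the low-count filter, including the germ cell genes H1FOO and H1FNT, which had no count. The 10 also include H2AFVP1, a pseudogene of H2AFV already counted among the pseudogenes above. CENPA, the centromeric H3 variant, fell to 17.7, 16.6 and 22.0 CPM in soft gel, against 40.6, 28.0 and 26.6 CPM on the rigid dish. Its groups did not overlap, and rigid dish replicate 1 was well above the other libraries (log2 fold change -0.76, SE 0.191, edgeR adjusted p = 0.0188). H3F3C, which encodes H3.5, had at most 1.74 CPM in soft gel and 3.07 CPM on the rigid dish, and was not called (edgeR adjusted p = 0.0665).

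Factors that handle the variants moved in both directions, more often down. Of 67 tested genes in 4 lists, 25 fell in soft gel and 7 rose, against 13.2% and 15.4% of all genes, and their median log2 fold change was -0.28. Without soft gel replicate 1 or soft gel replicate 2 the numbers were 12 lower and 0 higher, and without rigid dish replicate 2 they were 13 and 0. Without rigid dish replicate 3 the number higher was 0, and on TPM 9 were lower and 0 higher. Over all genes the numbers also fell, from 2123 lower and 2480 higher with all libraries. Without soft gel replicate 1 they were 864 and 1099, and without soft gel replicate 2 they were 797 and 1006. Leaving out rigid dish replicate 2 gave 936 and 1090, and leaving out rigid dish replicate 3 gave 1809 and 1371. On log2(TPM + 1) they were 968 and 1345.

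Of 10 tested H3.3 deposition factors, 3 fell and 2 rose (median log2 fold change -0.22). ASF1B, an H3-H4 chaperone of proliferating cells, fell to 65.3, 46.8 and 67.5 CPM in soft gel, against 134.3, 118.8 and 107.7 CPM on the rigid dish (log2 fold change -1.01, edgeR adjusted p = 0.00312). DAXX, the chaperone that works with ATRX at telomeres and repeats, fell (-0.52, edgeR adjusted p = 0.0149), as did UBN1 of the HIRA complex (-0.37, 0.0237). ATRX itself, a remodeller, was at 90.9, 100.5 and 33.2 CPM in soft gel and 37.1, 39.5 and 26.9 CPM on the rigid dish. ATRX was called higher (1.12, SE 0.349, edgeR adjusted p = 0.0404) although soft gel replicate 3 lay within the rigid dish range. UBN2, the paralogue of UBN1, rose (0.86, edgeR adjusted p = 0.0236). HIRA, named outside the rule after its values were seen, had 57.2 to 71.4 CPM in soft gel and 77.2 to 80.5 CPM on the rigid dish (edgeR adjusted p = 0.118).

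Of 21 tested H2A.Z exchange factors, 6 fell and 0 rose (median -0.15). The largest falls were in RUVBL1 and RUVBL2, paired ATPases shared by the SRCAP, TIP60 and INO80 complexes. RUVBL1 was at 43.1, 36.0 and 45.6 CPM in soft gel and 70.2, 79.2 and 86.2 CPM on the rigid dish (log2 fold change -0.92, SE 0.133, edgeR adjusted p = 0.0022). RUVBL2 was at 113.4, 96.0 and 108.2 CPM in soft gel and 176.7, 181.8 and 208.6 CPM on the rigid dish (-0.84, SE 0.117, edgeR adjusted p = 0.00198). For both ATPases the groups were well separated. EP400, the ATPase of the TIP60 complex (-0.46, edgeR adjusted p = 0.0131), and MRGBP, a further subunit (-0.44, 0.0497), also fell. SRCAP, the ATPase that inserts H2A.Z (-0.29, edgeR adjusted p = 0.119), and ANP32E, which removes it (-0.10, 0.773), did not pass. Both were named outside the rule after their values were seen.

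Of 15 tested genes of H2A.X damage signalling, 4 fell and 4 rose (median -0.08). The falls were in PPP4C, a phosphatase subunit (log2 fold change -0.58), PRKDC, a kinase of H2A.X (-0.56), MDC1, the reader of phosphorylated H2A.X (-0.44), and the ubiquitin ligase RNF8 (-0.42). Their edgeR adjusted p ran from 0.0197 to 0.0287. The rises were in the kinase ATM (1.04), NBN of the MRN complex (0.66), the phosphatase EYA4 (0.56) and TP53BP1 (0.48), with edgeR adjusted p from 0.0123 to 0.0426. ATM had 46.5, 56.6 and 26.5 CPM in soft gel and 28.2, 21.0 and 13.8 CPM on the rigid dish, so that its groups overlapped. NBN overlapped too, at 59.4, 61.0 and 34.9 CPM in soft gel and 32.9, 37.2 and 28.1 CPM on the rigid dish, and in both genes soft gel replicate 3 was the lowest of its group.

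Of 21 general histone chaperones, 12 fell and 1 rose (median -0.47). SSRP1, a FACT subunit that handles H2A-H2B during transcription, fell to 205.4, 189.0 and 208.7 CPM in soft gel, against 369.8, 414.3 and 384.7 CPM on the rigid dish (log2 fold change -0.95, SE 0.104, edgeR adjusted p = 0.000717). MCM2, a helicase subunit that also binds H3-H4 (-1.07), CHAF1B of the replication-coupled assembly factor (-0.89) and ANP32B (-0.87) fell as well, with edgeR adjusted p from 0.00101 to 0.00441. SPTY2D1, an H3-H4 chaperone, rose (0.53, edgeR adjusted p = 0.0278). MCM2 and the assembly factor act at replication forks. Proliferation genes moved with these falls in part, since 6 of 10 fell and 0 rose, against 13.2% and 15.4% of all genes tested. Not called were MKI67 (log2 fold change -0.68, edgeR adjusted p = 0.0858), TOP2A (-0.15, 0.735), CCNE2 (-0.23, 0.578) and CDK1 (0.05, 0.915). They were named outside the rule after their values were seen. The 10 genes summed to 1209.1 to 1562.3 CPM in soft gel and 1614.8 to 2721.4 CPM on the rigid dish, and none was at 0. The part of proliferation genes in the lower levels of the variants and chaperones was not tested. Of 7 tested genes of cell cycle exit, 0 rose and 1 fell, against 15.4% and 13.2% of all genes tested. With so few genes these numbers are not read as a result about the list. The gene that fell was CCND1, which encodes cyclin D1 and promotes the cycle (-0.83, edgeR adjusted p = 0.00119).

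**Figure D4:**
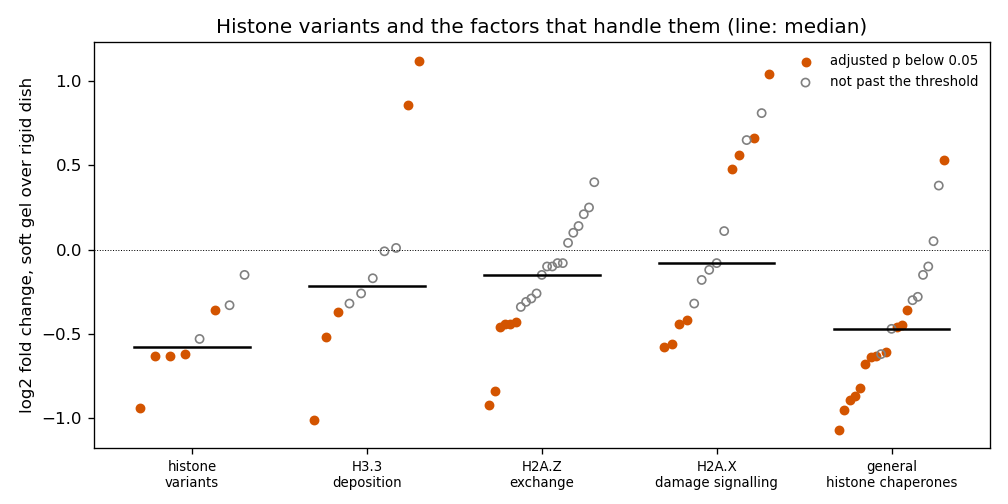
Log2 fold change, soft gel over rigid dish (vertical axis), of each tested gene among the histone variants and 4 lists of factors that handle them. Filled points passed an edgeR adjusted p below 0.05, open points did not, and lines are medians (-0.58 for the variants, -0.22, -0.15, -0.08 and -0.47 for the lists from left to right).

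The promoter motifs shown above were set beside the calls as a description. All 4 members with TATAAA (H2AFX, H2AFZ, H3F3B and H1FX) fell, and so did H2AFY, which has no TATAAA in its windows. Among 11381 tested genes with a promoter window, 14.7% were called lower in soft gel, and among the 1017 with TATAAA 13.6% were. With at least 3 CCAAT the number was 130 of 637 (20.4%), and with both TATAAA and at least 3 CCAAT it was 13 of 66 (19.7%). H2AFV and H2AFJ, with 4 and 3 CCAAT, were not called.

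In the authors' deposited table, 6 of the 9 members had an adjusted p below 0.05, all with a negative log2 fold change. These were the 5 called above and H3F3A, for which the authors' deposited table gave a log2 fold change of -0.37 (adjusted p = 0.0309).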

How the data were processed

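Per the labels' protocols, TRIzol was used to isolate RNA, and a TruSeq RNA kit of Illumina to prepare libraries. HISAT2, HTSeq and hg38 appear in the submitters' processing notes without roles. The authors deposited expected counts (estimated, in part not whole), TPM, gene length, a log2 fold change and an adjusted p-value per gene, per the file headers. The quantifier and strand setting are not given in the sources used here. All 58884 rows named a gene.

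Counts were rounded, filtered with filterByExpr (minimum count 10), scaled by TMM and tested by quasi-likelihood in edgeR 4.0.16 under R 4.3.3 (alternatives used limma 3.58.1 and DESeq2 1.42.0), adjusted by Benjamini-Hochberg over 16098 genes. SE was taken from the test statistic. Shares and sums were compared by exact permutation over libraries. Positions came from GENCODE release 29 (hg38), which held 58611 of the gene identifiers, and promoters from RefSeq. Fits were tested on simulated data. Python 3.11.15, pandas 2.3.3, Biopython 1.88 and matplotlib 3.10.9 were used.

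Of the 10 genes that the member symbols name, 1 is not reported here. The others were all named, and of each list up to 4 genes per direction past the threshold with 5 CPM or more and the largest change. Members, lists and tests were chosen with earlier results of these data known. Alternatives were other scalings, filters, tools, TPM, a replicate block, protein-coding genes and leaving out each library. PCR duplicates are not independent molecules, so statements on depth cover counting error.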

Additional observations from a re-analysis of the deposited data

How the results depend on the processing

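On leaving out 1 library each, members called lower ran from 3 to 7 and members called higher stayed at 0. Histone handling genes ran from 12 to 30 lower and 0 to 9 higher, and all genes from 797 to 2925 lower and 1006 to 3239 higher. The log2 fold change then ran from -0.88 to -0.46 for H1FX, -0.46 to -0.29 for H2AFY, -0.46 to -0.25 for H3F3A and -0.74 to -0.42 for H2AFJ. The difference in the H2AFZ share ran from -1.1 to 1.02 percentage points and so changed sign, and the CPM share of H2AFZ (-8.28) also reversed the TPM value (0.142). The cause was not tested, except that CPM ignores length.

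On log2(TPM + 1) and log2(TPM + 0.1), 2 members, 9 handling genes and 968 or 960 genes were called lower, with 0 handling genes and 1345 or 1327 genes called higher. H1FX (-0.57), H2AFY (-0.33) and H3F3B (-0.50) lost their calls there, H2AFY also with upper quartile factors (-0.33). With limma-voom 4 handling genes were higher. H3F3A gained a call with no low-count filter (-0.39), with DESeq2 (-0.37) and with the replicate block (-0.32). The causes were not tested. No tested member changed direction under any alternative run.

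Deviations of same-numbered libraries correlated at 0.272, 0.0163 and 0.406, and as the second is not over 0.1 the numbers were not taken as pairs. Soft gel replicates 1 and 3 correlated best with their own number and replicate 2 with rigid dish replicate 1. With the replicate block 6 members were called lower, against 5. Over all genes 2943 were then called lower and 3499 higher, against 2123 and 2480 without the block. Whether the numbers mark pairs was not settled. Few counts were read for H2AFY2, so that its depth could show only a large difference.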
